A study of Arabidopsis thaliana with 6 samples.

Results

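The 3 DMSO control arrays of this series describe the untreated level of gene expression in Arabidopsis thaliana shoots, and they were chosen by their sample titles, as 3 of 6 arrays in all. The plants were 2-week-old Col-0 seedlings of MYB112-IOE line 1, a single line in which β-estradiol induces the MYB-type transcription factor MYB112. They grew on MS agar in continuous light, spent 16 h in shaken liquid MS medium before treatment, and their shoots were taken at 3 h (1 DMSO array) or 5 h (2 DMSO arrays, replicates 1 and 2). The other 3 arrays came from shoots given 10 µM β-estradiol, 1 at 3 h and 2 at 5 h. The control plants therefore carried the inducible construct and had the same transfer to liquid medium, and no group without the construct was analysed here. RNA was hybridised to Affymetrix ATH1 arrays, on which each gene is read by a probe set, a group of short probes.

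In green tissue, genes for photosynthesis are among the most highly expressed. The chloroplast carries a small genome of its own, which encodes core subunits of the photosystems, the ATP synthase, the NDH complex and part of the plastid ribosome and RNA polymerase, while the antenna proteins and most enzymes of carbon fixation are encoded in the nucleus. Large plant gene families, such as the glycosyltransferases, cytochromes P450 and MADS-box factors, have many members that are used only in certain organs, stages or stresses.

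Each of 22746 probe sets was ranked within its own array, since the arrays did not share a scale. The lowest values on the log2 scale were 2.1 at 3 h, 2.14 in replicate 1 and 2.16 in replicate 2 at 5 h, and the medians were 5.83, 5.40 and 5.12. A rank is given below as a percentile, from near 0 for the lowest to near 100 for the highest, and sets of 3 values always follow the order 3 h, 5 h replicate 1, 5 h replicate 2. Probe sets tied at the lowest value share the percentile 11.6, 10.7 or 13.2 on these arrays. Ranks between probe sets also carry differences in how well each probe set binds its target, so a percentile is a level of signal and not a count of transcripts. The samples were bulk tissue, in which fewer cells of a type and less RNA per cell cannot be told apart.

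Before the results, some probe sets changed place between arrays in a way that touches the comparisons further on. Over all probe sets the rank correlation between DMSO arrays was 0.954 to 0.957. Over the 64 control probe sets, which read spiked-in or standard sequences, it was 0.745 between 3 h and 5 h replicate 1, 0.354 between 3 h and replicate 2, and 0.444 between the replicates. One control for a phage recombinase, cre, read 14.74, 2.23 and 12.17 on the log2 scale. A further sign came from 152 genes with more than 1 probe set. Among their 185 probe set pairs, 25 pairs of 24 genes turned their order, with each probe set leading by at least 20 percentile points on at least one DMSO array. For AT3G50590, which carries only a locus number in the tables used, one probe set read 11.6, 83.6 and 13.2 and the other 83.3, 10.7 and 83.3. SIZ1, a SUMO ligase, had one probe set at 45.6, 27.0 and 78.3 and another at 80.6, 79.2 and 42.4. All 25 pairs had the same order on the estradiol array of the same time and number as on the DMSO array. Where such a turn occurs, a percentile printed for one array may not refer to the same probe set as on the other arrays. This was not tested, and it limits every value set across arrays below, most of all for genes with large array-to-array differences.

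**Figure D1:**
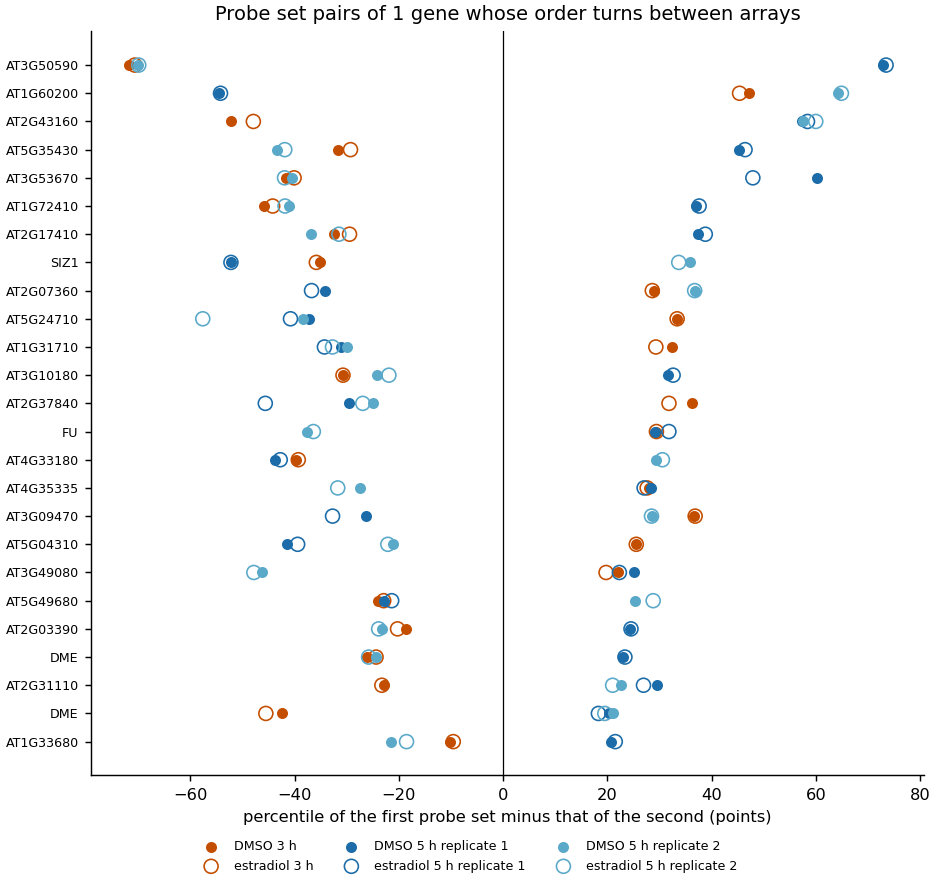
Difference in within-array percentile between 2 probe sets of the same gene (x axis, points) for the 25 pairs (rows, by gene) whose order turned by at least 20 points each way; filled circles are DMSO arrays and open circles the estradiol arrays of the same time and number. Open and filled circles of a colour lie on the same side of 0 in all 25 rows, while the colours lie on both sides.

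The ranked values had a long flat floor. On the 3 arrays, 5269, 4847 and 6007 probe sets sat exactly at the lowest value, and 34.0%, 33.6% and 35.9% lay within 0.5 of it. The top 1% of each array began at 13.19, 12.76 and 12.74 on the log2 scale. Probe sets were called top when they reached percentile 99 on all 3 arrays, middle when they stayed between 45 and 55 on all 3, and floor when they stayed within 0.5 of the lowest value on all 3. By these rules 154 probe sets were top, 782 were middle and 6775 (29.8%) were floor. Of the 229 top probe sets at 3 h, 67.2% were also top on both 5 h arrays. An array annotation updated to RefSeq (TAIR10.1) named a single gene for 13513 probe sets, covering 13350 genes, of which 1552 carry a symbol and 11798 only a locus number. It named 56 of the top, 479 of the middle and 4715 of the floor probe sets. Roles are therefore given only for genes with a symbol.

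**Figure D2:**
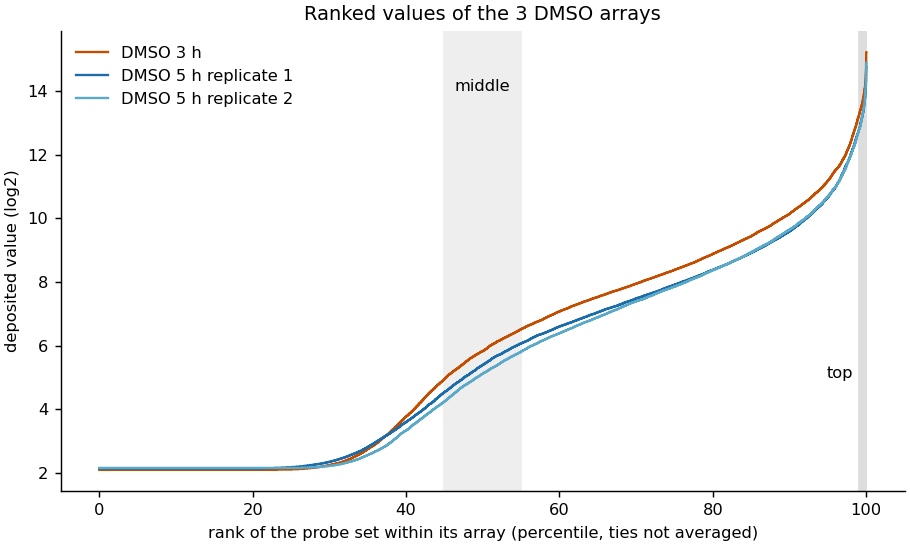
Deposited log2 value (y axis) against rank within the array (x axis, percentile) for the 3 DMSO arrays, with the middle and top bands shaded. All 3 curves begin with a flat stretch at the lowest value, start their top 1% between 12.74 and 13.19, and the 3 h curve lies above both 5 h curves over the upper part of the range.

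Among named genes, the highest ranks were held mostly by genes with only a locus number, whose roles are not given here. The leading function at the top is therefore not shown. The symbol pattern for nuclear ribosomal proteins, for example, matched no measured gene, and it missed PGY1, which is given below. Of the 30 named genes with the highest lowest-percentile, 25 carried only a locus number, and all 25 stayed at or above percentile 99.4. AT3G60245 led the list at 15.22, 14.77 and 14.67 on the log2 scale, followed by AT1G52300 at 14.67, 14.20 and 14.28. The other 5 all serve photosynthesis. The chloroplast gene atpE, for the epsilon subunit of the plastid ATP synthase, read 14.22, 14.04 and 14.34, or percentiles 99.86, 99.93 and 99.98. Its neighbour atpB, for the catalytic beta subunit, read percentiles 99.85, 99.95 and 99.75. The nuclear gene PSAE-1, for a stromal subunit of photosystem I, read 99.72, 99.72 and 99.87, and ndhI, a plastid gene for a subunit of the NDH complex, read 99.73, 99.66 and 99.46. RCA, the activase that keeps rubisco working, read 99.44, 99.85 and 99.75. The widest gap between the arrays for these genes, for RCA, was 0.409 points. They were picked by their lowest percentile over the same arrays, so narrow gaps were fixed in advance.

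The next symbols in rank order had mixed roles, and those given here were chosen after their values were seen. GAPC2, a cytosolic glyceraldehyde-3-phosphate dehydrogenase of glycolysis, read 99.50, 99.48 and 99.30. TPI, the triose-phosphate isomerase of the same pathway, read 99.29, 99.21 and 99.32. PRXR1, a peroxidase, stayed at or above 99.23, and CYTC-1, the mitochondrial electron carrier cytochrome c, at or above 99.02. These 4 genes with the 5 above make up all 9 top probe sets that carry a symbol. CYTC-1 was the last of them inside the cut, and cICDH, the cytosolic NADP-dependent isocitrate dehydrogenase, was the first outside it at 98.86, 99.38 and 99.27. SAMDC, the decarboxylase that supplies polyamine synthesis, and GRXC2, a glutaredoxin, followed with lowest percentiles of 98.83 and 98.79. Further down stood PGY1, a cytosolic ribosomal protein of the L10a type, at 99.06, 98.74 and 98.69, and TUA6, an alpha-tubulin, at 98.23, 98.23 and 98.65. MT1C, a metallothionein, read 98.29, 98.90 and 98.31, and the glutathione transferase GSTU20 read 97.96, 98.36 and 98.21. The rest of the 30 highest symbols were mostly chloroplast genes and nuclear photosystem genes, and each of the 30 stayed above percentile 97.9 on all 3 arrays.

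**Figure D3:**
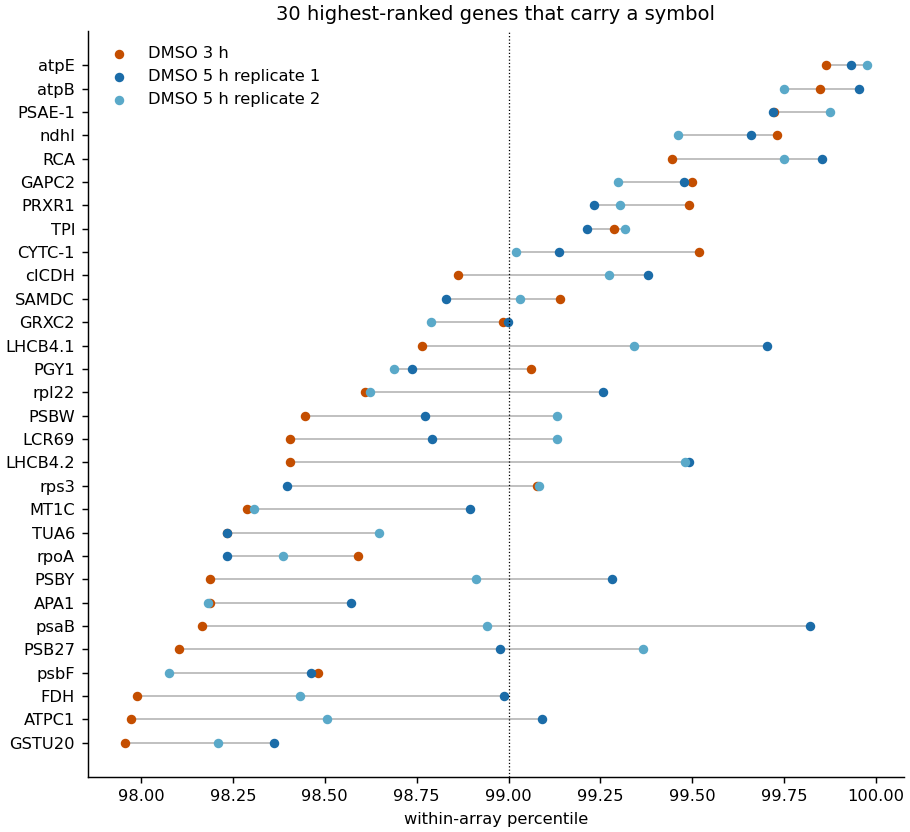
Within-array percentile (x axis) of the 30 highest-ranked genes that carry a symbol (rows), with 1 point per DMSO array, a bar over their range and a dotted line at percentile 99. From LHCB4.1 downward, several photosystem genes have the 3 h point at the left end of the bar, such as LHCB4.2 at 98.41 against 99.49 and 99.48.

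The nuclear photosynthesis genes were high as a group. The lists used here hold 538 entries in 32 lists, and the annotation placed 78 of them on probe sets, so each list is seen only in part. In 5 lists for the antenna, photosystems, carbon fixation, photorespiration and chlorophyll synthesis, 17 genes were measured. Their median percentile was 97.2, against 50.2 over all probe sets and 58.4 over all genes with a symbol. On all 3 arrays 14 of 17 stayed at or above 90, against 8.02% of all probe sets and 10.3% of genes with a symbol. LHCB4.1 and LHCB4.2, which encode the CP29 antenna protein, averaged 99.3 ± 0.47 and 99.1 ± 0.62 (SD, n = 3 arrays). LHCB4.3, the third CP29-type gene, lay far lower at 49.1, 47.7 and 55.2. PSAN of photosystem I read 97.2, 99.03 and 98.8, and PSBY and PSBW of photosystem II read 98.2, 99.3, 98.9 and 98.4, 98.8, 99.1. ATPC1, the gamma subunit of the plastid ATP synthase, read 97.97, 99.09 and 98.5. In the carbon fixation cycle, PRK and SBPASE, enzymes of its regeneration phase, averaged 96.8 and 96.9. HPR, the peroxisomal hydroxypyruvate reductase of photorespiration, read 91.5, 97.3 and 96.3. Among chlorophyll genes, PORB (the light-dependent protochlorophyllide reductase) averaged 97.2 and CHLM (a methyltransferase of the magnesium branch) 96.8, while CHLI2, a minor isoform of the magnesium chelatase subunit I, read 82.6, 89.99 and 85.4.

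Chloroplast-encoded genes were spread over the upper part of the ranking. The 69 measured had a median percentile of 89.4, from 46.5 to 99.9 in mean percentile, and none was at the floor. By function, the medians were 92.6 for 15 photosystem II genes and 93.6 for 15 ribosomal protein genes. They were 86.6 for 5 photosystem I genes, 85.8 for 6 ATP synthase genes, 72.3 for 6 cytochrome b6f genes, 71.4 for 4 RNA polymerase genes and 68.0 for 10 NDH genes. Within the ATP synthase, atpE and atpB were top while atpI, which encodes a membrane subunit, read 54.4, 74.2 and 55.8. Within the polymerase, rpoA read 98.6, 98.2 and 98.4 and rpoB 53.8, 49.4 and 49.3. psbA, the gene for the D1 protein, read 76.8, 88.4 and 72.6, and rbcL, for the large subunit of rubisco, read 68.5, 91.3 and 83.5. The ranks of different probe sets also carry probe binding, as said above, and its part in the gaps between genes of one complex was not tested. The 16 mitochondrial genes, recognised by symbol, had a median of 39.2. At the floor were 5 of them (31.25%), beside 29.8% of all probe sets and 23.2% of genes with a symbol. The highest was ccb382, for a cytochrome c assembly protein, at 51.7, 77.5 and 46.8, and the oxidase subunit cox1 read 43.98, 64.1 and 49.7.

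**Figure D4:**
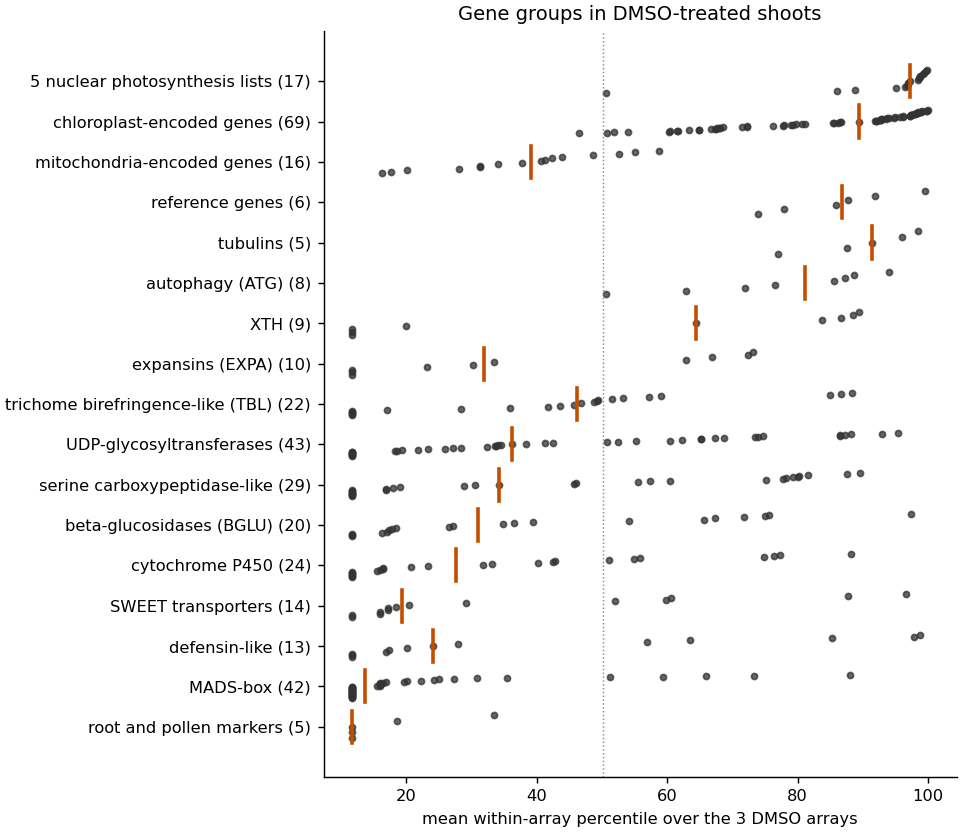
Mean within-array percentile over the 3 DMSO arrays (x axis) for each measured gene (points) of 17 groups, with the number of genes in brackets, the group median as a vertical bar and the median of all probe sets as a dotted line. Nuclear photosynthesis genes gather near a median of 97.2, whereas the MADS-box group has a median of 13.7; its highest point, at 88.0, is AGL26, whose other probe set was at the lowest value.

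Genes in common use ranked high. Of the list of genes often used as references for normalization, 6 were measured, with means from 74.0 to 99.4 and a median of 86.7. Besides GAPC2, the locus-only AT5G46630 read 90.7, 92.9 and 92.0. The tubulins ranged from TUB1 at 81.8, 71.4 and 77.6 to TUA6. The glucosinolate genes BCAT4 and UGT74B1, for an early chain-elongation step and a late glucosylation step, averaged 94.0 and 92.9.

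Middle probe sets carried a gene name or a symbol about as often as the whole array: 61.3% were named, against 59.4%, and 11.3% of the named ones had a symbol, against 11.7%. The 10 named genes nearest percentile 50 on all 3 arrays stayed within 1.32 points of it, and 8 of them carry only a locus number. URE, the urease that releases ammonia from urea, read 49.5, 49.0 and 49.3. SIC, a protein needed for microRNA processing, read 48.9, 49.0 and 49.8. AT3G55760, the nearest, read 49.7, 49.95 and 50.7. A rank in the middle meant log2 values of 4.96 to 6.51 at 3 h, 4.55 to 6.07 in replicate 1 and 4.25 to 5.81 in replicate 2, well above the floor. Of the 54 middle probe sets with a symbol, 3 are given here that were chosen after their values were seen. GID1C, a gibberellin receptor, read 49.2, 54.5 and 45.6, and PYE, a bHLH regulator of the iron deficiency response, read 50.9, 48.2 and 50.6. SPCH, which starts the stomatal lineage, read 50.5, 51.5 and 46.1.

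Of the 5 measured root and pollen markers, 4 were at the floor on all 3 arrays, beside 29.8% of all probe sets. These were EXPA7, an expansin of root hairs, and AMS, a bHLH factor of the tapetum. SHT, an acyltransferase of the tapetum, and AT5G07230, listed as the anther gene A9, were the others. The fifth, EXPA18, another root hair expansin, read 33.6, 36.0 and 30.8, beside an upper edge of the floor at 34.0, 33.6 and 35.9. Only 2 of 22 root markers and 3 of 16 pollen and anther markers could be placed, and no seed or flower marker could, so the shoot label was checked on few genes. PYK10, a beta-glucosidase of endoplasmic reticulum bodies that is abundant in seedlings and roots, was added to this check after its values were seen and read 95.4, 98.004 and 97.1. In the shoot apex lists, CLV3, the stem cell peptide, and LAS, a factor of axillary meristems, were at the floor, while the leaf polarity gene YAB3 read 67.8, 74.2 and 72.1. In the stomatal lineage MUTE, which ends the self-renewing divisions, was at the floor, FMA, which completes guard cell fate, read 51.0, 59.1 and 46.7, and STOMAGEN, a mesophyll peptide that promotes stomata, read 74.1, 83.6 and 75.2. TRY, an inhibitor of trichome fate, read 34.7, 32.8 and 32.3, outside the floor at 3 h and inside it on both 5 h arrays.

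Of 9 measured genes of the flavonoid pathway, 4 were at the floor, beside 29.8% of all probe sets: DFR, the reductase that opens the anthocyanin branch, BAN, an anthocyanidin reductase of the seed coat, AT5MAT, a malonyltransferase of anthocyanins, and AT4G14090, listed as the anthocyanin glucosyltransferase UGT75C1. The flavonol glycosyltransferases stood higher, with UGT78D1 at 83.5, 70.9 and 67.4 and UGT78D2 at 56.6, 59.1 and 65.7. CHIL, a chalcone isomerase-like protein, read 51.6, 43.99 and 45.2. UF3GT, a glycosyltransferase of anthocyanins, was near the floor but above it on at least 1 array, at 35.4, 32.3 and 33.8, and AT1G06000, listed as the flavonol rhamnosyltransferase UGT89C1, read 74.3, 60.9 and 68.6.

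Several large families held both floor members and high ones. Of 42 MADS-box genes, regulators known mainly from flowers, fruit and the female gametophyte, 35 were at the floor and the median was 13.7, while AGL87 read 66.3, 72.3 and 81.2. AGL26 had 2 probe sets that disagreed, one at 88.6, 85.2 and 90.2 and the other at the lowest value on all 3 arrays. Of 24 cytochromes P450, mostly of the CYP71B group, 12 were at the floor and CYP71B26 was highest at 86.1, 88.4 and 89.98. Of 43 UDP-glycosyltransferases, 12 were at the floor, and UGT88A1 and UGT74B1 stayed above 92 on all arrays. Of 13 defensin-like genes, 7 were at the floor, yet LCR69 and LCR68 averaged 98.8 and 97.8, and PDF1.2b, a jasmonate-responsive defensin, read 82.7, 89.9 and 83.1. The same shape was seen in families grouped only by a shared symbol prefix. Of 14 SWEET sugar transporters 7 were at the floor, and SWEET11, which exports sucrose for phloem loading, read 95.9, 97.3 and 96.6. Of 20 BGLU beta-glucosidases 9 were at the floor, and BGLU44 read 95.96, 98.004 and 98.2. Over all probe sets, 29.8% were floor, so these shares ran from near that figure in the UDP-glycosyltransferases to well above it in the MADS-box genes.

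Pseudogenes filled the floor more than protein-coding genes did. Of 989 probe sets whose gene is annotated as a pseudogene in RefSeq, 86.5% were at the floor and none was top. Of 12443 probe sets for protein-coding genes, 30.7% were at the floor. The highest pseudogene probe set, for AT4G08220, read 80.2, 77.2 and 76.5. The classes also differed in the length of the gene from start to end. The median was 1567 bases for the 53 nuclear protein-coding top probe sets, 2672 for 471 middle ones and 1624 for 3816 floor ones, against 2125 over all 12374. The median was shorter in both end classes than in the middle.

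The spread in percentile between the 3 arrays differed with the level. The range of a probe set's percentile over the arrays had a median of 5.14 points and reached 89.3. It was 0.284 points for mean percentiles above 99 and 1.63 from 90 to 99. It rose to 4.21 from 80 to 90, 6.28 from 60 to 80 and 6.59 from 40 to 60. The range was widest at 10.9 from 20 to 40, where values leave the floor. From 0 to 20 it was 2.55, the range of a probe set tied at the lowest value on all 3 arrays. A difference of a few points was thus within the usual spread for a gene in the middle and outside it for one at the top.

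In several groups most genes ranked higher, or most ranked lower, at 3 h than on both 5 h arrays. Time and the separately scaled array pair cannot be told apart, so these differences have no test. Over all probe sets, 29.0% were higher at 3 h than on both 5 h arrays and 30.8% were lower than on both. The 3723 probe sets tied at the lowest value on all 3 arrays could count as neither. No photosynthesis or low-oxygen gene counted below was at the floor. Of the 17 nuclear photosynthesis genes, 15 were lower at 3 h than on both 5 h arrays and 0 were higher, with group medians of 96.0, 97.9 and 97.9. The exceptions were LHCB4.3 and PSAE-1. On the 3 estradiol arrays, 16 of the 17 were lower at 3 h. The differences were small in points, and, by the smaller of the 2 gaps, widest for HPR and then CHLM. The low-oxygen response genes lay the other way, with 10 of 11 higher at 3 h than on both 5 h arrays and medians of 86.6, 57.2 and 82.1. The 5 h arrays themselves differed here: AT5G66985 read 93.5, 50.3 and 89.98, and PDC2, the pyruvate decarboxylase of ethanol fermentation, read 91.9, 87.5 and 92.2. Over the estradiol arrays 7 of 11 were higher at 3 h. The 3 measured genes of the touch and rapid stress list were also higher at 3 h: STZ, a zinc finger repressor, at 96.9, 89.9 and 91.0, CML38, a calmodulin-like protein, at 95.9, 70.0 and 84.7, and WRKY53, a senescence and defence factor, at 75.8, 49.6 and 51.6. GI, a clock protein, read 63.7, 71.5 and 79.3.

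Chloroplast-encoded genes separated the 5 h replicates. Of the 69, 50 were highest in 5 h replicate 1, against 28.1% over all probe sets, and 42 were lower at 3 h than on both 5 h arrays. Probe sets tied at the lowest value on all 3 arrays lower that share, since they cannot be highest there. None of the 69 was at the floor. The group medians were 82.5, 94.6 and 88.7. The gene psbD, for the D2 protein of photosystem II, read 44.3, 88.0 and 52.9. ndhJ of the NDH complex read 53.9, 88.9 and 61.5, and rps2, for a plastid ribosomal protein, read 69.0, 92.6 and 71.5. Genes near the ceiling, such as psbF at 98.5, 98.5 and 98.1, changed little. On the estradiol arrays 52 of the 69 were likewise highest in replicate 1 at 5 h. The 2 replicates at 5 h bear the same label apart from their number, and shoots and separately scaled array pairs cannot be told apart in this gap.

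**Figure D5:**
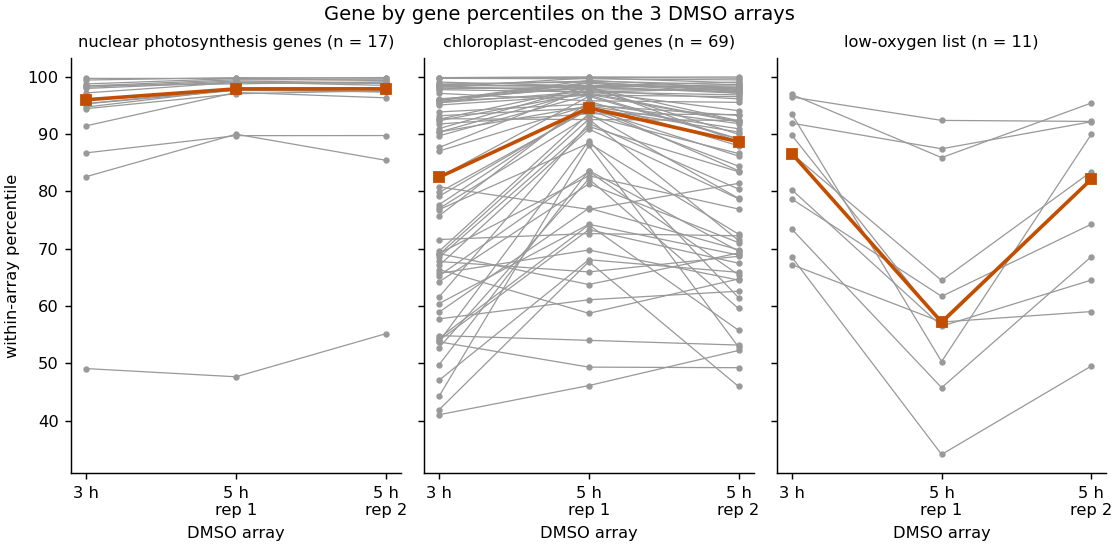
Within-array percentile (y axis) on the 3 DMSO arrays (x axis) for 17 nuclear photosynthesis genes, 69 chloroplast-encoded genes and 11 genes of the low-oxygen list; grey lines join the values of a gene and the thick line joins the medians. The chloroplast median is highest in 5 h replicate 1 (94.6) and the low-oxygen median is lowest there (57.2).

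Large shifts were few. At least 20 percentile points separated the 3 h array from both 5 h arrays for 193 probe sets that were higher at 3 h (0.849%) and 115 that were lower (0.506%). Between the 5 h replicates, 438 probe sets were at least 20 points higher in replicate 1 (1.93%) and 401 at least 20 points lower (1.76%). Of the 193 and 115, only 79 and 38 were above the floor on all 3 arrays. The gene with the widest shift toward 3 h was AT5G48240, at 88.7, 10.7 and 13.2, followed by AT5G51220 at 82.9, 10.7 and 13.2. The one symbol among these 10 was GSTU25, a glutathione transferase, at 85.0, 35.7 and 36.2. Toward 5 h, the widest were AT2G43160, at 35.0, 89.4 and 86.0, and AT1G66100, at 11.6, 65.7 and 61.5. AT2G43160 appeared in both directions, since its other probe set read 87.1, 32.0 and 28.6. Between the 5 h replicates, AT1G17744 read 85.5 in replicate 1 and 13.2 in replicate 2, and AT4G32700 read 10.7 and 96.5. Of the 40 probe sets with the widest shifts, 10 in each direction of the 2 comparisons, 34 were at the floor on at least 1 DMSO array. In 32 of the 40, each DMSO array lay within 3 points of the estradiol array of its pair. Whether the turned probe set orders described at the start have a part in these shifts was not tested.

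The DMSO arrays were set against the estradiol arrays by rank, and 1 probe set passed the test. In limma's moderated test on percentiles, over all 6 arrays with time as a covariate, 14485 probe sets reached percentile 40 on at least 2 arrays and were tested. None was higher in DMSO (0.0%; 137 at an unadjusted p under 0.05) and 1 was lower (0.0069%; 191 at an unadjusted p under 0.05). Adding a term for each estradiol and DMSO pair left 0 higher and 1 lower, while the unadjusted counts were 718 and 816. The called probe set has no named gene in the tables used here. It passed the filter only through the estradiol arrays, since its percentiles in DMSO were 33.9, 34.1 and 39.6. It read 2.59, 2.70 and 3.27 on the log2 scale in DMSO and 10.80, 12.87 and 13.30 with estradiol, a difference of -61.6 percentile points for DMSO minus estradiol (SE 1.97; limma adjusted p = 0.00666 with 3 arrays a treatment), lower in 3 of 3 pairs. No probe set was called when any one of 5 arrays was left out or on quantile-normalized values. Without DMSO 5 h replicate 1, 1 was called. Over the alternatives, the smallest limma adjusted p of any probe set ranged from 0.00443 to 0.253. The annotation used named MYB112 on no probe set, so its own level in the controls is not reported. Of the 154 top probe sets all were tested and 0 were called, also at an unadjusted p under 0.05, and 0 with the pair as a block. Their largest difference between treatments was 0.306 points. Of the 782 middle probe sets 0 were called and 13 (1.66%) had an unadjusted p under 0.05. Over all probe sets tested that share was 2.26%, so few were to be found in either class. Only 1 of the 6775 floor probe sets passed the filter on low values, so the floor class was in effect not tested. The 11 low-oxygen genes were all lower with estradiol in all 3 pairs, against 13.4% of all probe sets, and none was called. A probe set tied at the lowest value on the DMSO and estradiol arrays at 3 h could not count here. None of the 11 was at the floor. Their list was chosen with earlier results of these data known, so the count is no independent support. AT3G10040, listed as HRA1, read 53.2, 44.6 and 44.7 with estradiol beside 80.3, 56.5 and 64.5 in DMSO. A p that misses the threshold does not show equal levels, and 3 arrays per treatment limit the precision.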

How the data were processed

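Transcript signal was measured on 6 single-sample ATH1 arrays, and groups came from the labels. The deposited table gives the authors' processed signal as log2 values. The submitters' processing notes name GCRMA and RMA, without versions or roles; no source used here states the log base, and base 2 was taken from the range. These values hold no measure of signal over background. The labels number biological replicates without naming separate cultures, so p-values measure only the spread between these samples. The 64 control probe sets were left out, and the other 22746 were ranked within each array (average ranks for ties, percentile = 100 times rank minus 0.5 over the number of probe sets). Names came from the platform annotation and RefSeq (TAIR10.1): 13513 probe sets had 1 gene, 503 several and 8730 were not listed, and 13436 matched RefSeq. For a gene with several probe sets the one of highest mean percentile was used. No column was left unmapped. No table of promoters or proteins was used here, so no sequence is shown.

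Named genes were the 30 highest, the 10 nearest percentile 50, the 10 widest shifts in each direction between 3 h and 5 h and between the 5 h replicates, members of the lists and families, and up to 5 genes with differing probe sets; others are marked in the text. Lists covered photosynthesis, organ markers, secondary metabolism, stress and hormones. Families were matched by symbol, and 43 further groups by a prefix shared by at least 5 genes. The members and lists were chosen with earlier results of these data known. Of 32 lists 9 had no measured member, and the symbol patterns of 9 of 27 families matched none. Light perception, aquaporin, seed, flower, cell cycle, cuticle, vascular, nutrient and senescence genes were therefore not analysed here.

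Estradiol and DMSO were compared with limma 3.58.1 in R 4.3.3 (lmFit, then eBayes with its trend option; two-sided p adjusted by Benjamini-Hochberg, threshold 0.05), after a test on simulated data. Other values were computed with Python 3.11.15, pandas 2.3.3 and numpy 2.4.6, and plotted with matplotlib 3.10.9. Same-numbered estradiol and DMSO arrays deviated together from their treatment means (correlations of 0.929, 0.921 and 0.870 over probe sets, which also hold any effect of time), so the numbers were taken to pair the samples, and the pair as a block was an alternative.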

Additional observations from a re-analysis of the deposited data

Results flagged for a closer look

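Among the control probe sets, which enter none of the comparisons, some for Bacillus subtilis genes gave signal on the 5 h arrays and none at 3 h. Of 27 control probe sets for Bacillus subtilis genes, 0 lay more than 0.5 above the lowest value in the DMSO array at 3 h, 1 in 5 h replicate 1 and 20 in 5 h replicate 2. The highest of them read 2.11, 9.09 and 13.01 on the log2 scale. Over all 64 control probe sets, 36, 35 and 57 lay above that line.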

How the results depend on the processing

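Class sizes followed the cuts. With 1 probe set per named gene, ranked among named genes only, 100 were top and 502 middle. A top 2% cut gave 352 and a middle of percentile 40 to 60 gave 2785. Leaving out 1 DMSO array gave 1185 to 1284 middle probe sets and a median range of 2.505 to 2.73 points, since fewer arrays must agree. The floor held 5310 to 7612 probe sets with widths of 0.1 to 1. The 308 probe sets at least 20 points apart between 3 h and 5 h became 1789 at 10 points and 1489 at 2-fold on quantile-normalized values. Among named genes with 1 probe set, a setting chosen after seeing the data, the count was 148. That setting draws on fewer than the 13350 named genes and the main count on 22746 probe sets, so 308 and 148 have different totals. The cause was not tested. The estradiol test called 1 probe set, also 1 with the replicate block, with deposited log2 values and without the filter, 0 on quantile-normalized values, and 0 to 1 when an array was left out: 0 without DMSO 3 h, DMSO 5 h replicate 2 or any estradiol array, and 1 without DMSO 5 h replicate 1. With an array of the 3 h pair left out, the time term takes up the other. The block changed no call, and raised the count at an unadjusted p under 0.05 from 328 to 1534. Medians of the 23 lists with members moved by up to 8.75 points when an array was left out. Using the mean over probe sets could not change them, since no list gene was among the genes with several probe sets. The planned search of promoters for a TATA motif, and protein length, were not run.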

Other observations

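Some groups formed by a shared symbol prefix are given here as values, chosen after their values were seen, beside a median percentile of 58.4 over all genes with a symbol. The 8 ATG genes of autophagy had a median percentile of 81.1 with none at the floor, led by ATG8F at 91.8, 94.7 and 95.6. The 6 LSM genes, for RNA-binding ring proteins of splicing and decay, had a median of 84.7, and the 10 VPS genes of vacuolar sorting 71.1, where VPS24.2 was at the floor beside VPS24.1 at 78.7, 81.6 and 80.3. The 6 NRPB genes for RNA polymerase subunits ran from NRPB9A at 37.0, 24.8 and 39.6 to NRPB12 at 96.8, 95.1 and 96.7. The 8 ALDH genes for aldehyde dehydrogenases had a median of 89.1, with ALDH2C4 at 94.2, 94.4 and 94.0. Other groups lay lower, with medians of 52.6 for 12 UBP deubiquitinases, 43.8 for 9 PUB ubiquitin ligases, 38.0 for 7 SBT subtilases and 59.8 for 11 PRA genes.

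Floor counts in further prefix groups are set beside 29.8% of all probe sets and 23.2% of genes with a symbol. Of 9 XTH genes, which remodel xyloglucan, 3 were at the floor while XTH16 read 87.4, 90.5 and 89.98. Of 10 EXPA expansins, which loosen walls, 5 were at the floor and EXPA4 read 77.2, 76.2 and 63.6. Of 22 TBL genes, linked to acetylation of wall polymers, 7 were at the floor. Of 10 RALFL signalling peptides, 5 were at the floor, while RALFL33 read 96.4, 92.9 and 95.1 and RALFL34 90.3, 91.7 and 95.6. Among 7 IAA genes of auxin signalling 5 were at the floor and IAA18 read 78.5, 82.7 and 83.1.

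Of the 154 top probe sets, 36.4% had a single named gene here, against 59.4% over the whole array. Among 78 probe set pairs of 1 gene that lay at least 20 percentile points apart on all 3 DMSO arrays, 55 kept their order and 23 did not.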
